A study of Mus musculus with 44 samples.

Results

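The later against the earlier phase of an endotoxin challenge was compared in whole blood: the 3 libraries taken 24 h after lipopolysaccharide (LPS) against the 4 taken 6 h after it, chosen by tissue, treatment and time from the labels. These 7 of the 44 libraries of the study hold genomic DNA profiled by reduced representation bisulfite sequencing (RRBS), which reads the share of methylated molecules at single cytosines, mostly in CpG-rich DNA. All came from wild type adult male C57BL/6J mice of 8 to 12 weeks that were treated to model the exposures behind Gulf War Illness. They drank corticosterone (CORT, a stress hormone) at 200 mg/L for 7 days and received 4 mg/kg of diisopropyl fluorophosphate (DFP), which blocks acetylcholinesterase for good, on day 8, and courses of CORT went on to 5 weeks. LPS, the endotoxin of Gram-negative bacteria, was then given under the skin at 0.5 mg/kg. The controls carried CORT and DFP too and received saline, and they were collected at 6 h only. Their values stand beside the LPS values for orientation, and the 24 h against 6 h contrast used LPS libraries alone. Whether the replicates are different mice is not in the labels, so the spread that each p-value rests on is that between samples and may be technical.

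DNA methylation is laid down on CpG dinucleotides by the DNMT enzymes and removed by dilution in dividing cells or by oxidation through the TET enzymes. Blood cell types differ in methylation at the genes that define them: genes of neutrophil granules are demethylated as granulocytes mature, and T and B cell genes lose methylation in their own lineage. Endotoxin draws neutrophils and young granulocytes out of the bone marrow while lymphocytes leave the circulation. Whole blood mixes all of these cells, so a change in the mix and a change within cells cannot be told apart here.

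The values of the 6 h comparison covered 1201496 cytosines and those of the 24 h comparison 1191151, with 1166852 in both, of which 487 on unplaced contigs were left out. No read counts were given, so the depth behind each percentage is unknown. Mean methylation over the shared cytosines was 34.9%, 33.4%, 35.1% and 33.9% in LPS 6 h replicates 1 to 4, and 34.2%, 35.6% and 33.6% in LPS 24 h replicates 1 to 3. The groups overlapped, with a mean of 34.3% ± 0.805 (SD, n = 4) at 6 h and 34.5% ± 1.06 (SD, n = 3) at 24 h, a difference of 0.165 percentage points (exact permutation test, two-sided, p = 0.8; the smallest p that 4 against 3 libraries allow is 0.0571). The share of cytosines at intermediate methylation, 20 to 80%, was 10.9%, 14.3%, 11.2% and 12.0% at 6 h and 10.7%, 9.63% and 13.1% at 24 h (difference -0.978 points, exact permutation test, two-sided, p = 0.457). In the saline libraries this share was 16.3% ± 0.26 (SD, n = 4), above every LPS library. With a band of 10 to 90% this did not hold: LPS 6 h replicate 2 had 28.3%, above the saline libraries at 26.8% to 27.6%.

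**Figure D1:**
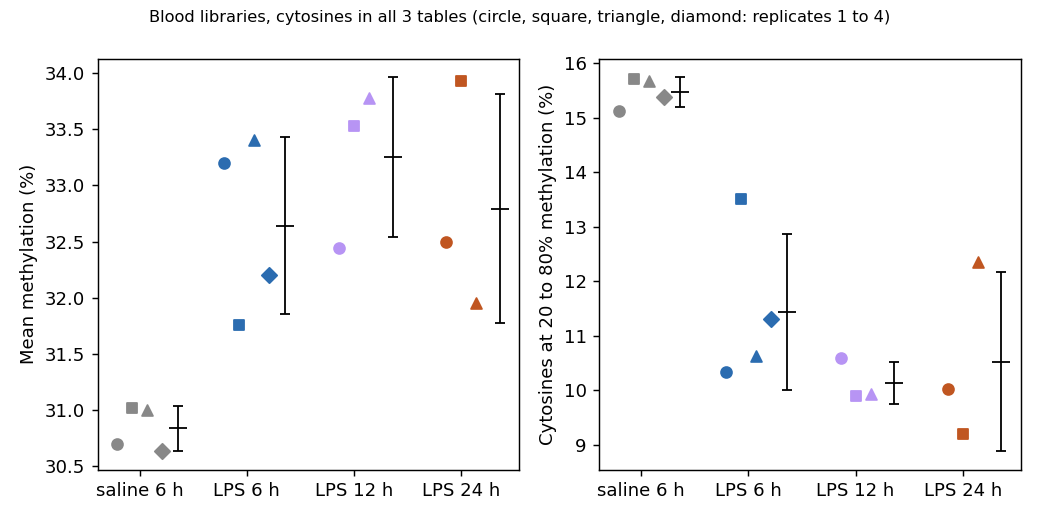
Mean methylation (left, %) and share of cytosines at 20 to 80% methylation (right, %) in each blood library, over the cytosines common to the 6 h, 12 h and 24 h tables. Points are libraries and bars are the mean ± SD of a group; LPS 24 h and LPS 6 h overlap in both panels, with 1 of the 3 LPS 24 h points above all LPS 6 h points on the left and 2 below all of them on the right, and LPS 6 h replicate 2 has the highest intermediate share of the LPS libraries, 13.5%.

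LPS 6 h replicate 2 stood apart from the other LPS libraries. Averaged over the other 6 libraries, its mean absolute difference per 1 kb tile was 4.17 points, against 3.34 to 3.81 points for the others. At the 5241 tiles that were at least 30 points higher in the LPS 12 h libraries than in saline, a scale was set with saline at 0% and LPS 12 h at 100%. On it, LPS 6 h replicates 1 to 4 had median places of 99.1%, 77.6%, 98.8% and 94.3%, and LPS 24 h replicates 1 to 3 of 98.2%, 103% and 92.4%. At the 1579 tiles that were at least 30 points lower in LPS 12 h, LPS 6 h replicate 2 was again the nearest to saline, at 84.4%, while the other 6 libraries lay between 95.8% and 106%. So 6 of the 7 libraries sat at or near the 12 h level whether they were taken at 6 h or at 24 h. No test was made on this scale.

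Levels at a few marker genes were compared between blood and brain. Tiles at Spi1, which encodes the master transcription factor of myeloid cells, had 14.3% ± 6.32 methylation (SD, n = 7) in the LPS blood libraries and 81.1% ± 4.73 (SD, n = 8) in the LPS 6 h and 24 h libraries of cortex. Tiles at Prtn3, a serine protease of neutrophil granules, had 8.24% ± 3.26 (SD, n = 7) in blood and 53.4% ± 2.33 (SD, n = 8) in cortex. Tiles at Rbfox3, a marker of neurons, had 62.0% ± 1.78 (SD, n = 7) in blood and 48.6% ± 2.33 (SD, n = 8) in cortex, while a tile at Gfap, a marker of astrocytes, had 85.9% ± 3.36 (SD, n = 7) and 87.0% ± 2.35 (SD, n = 8).

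No region passed the test between 24 h and 6 h, at any scale. With limma and Benjamini-Hochberg adjustment, 0 of 69334 tiles of 1 kb were called (0%), where a call needed an adjusted p under 0.05 with at least 5 points between the means, 0 of 12450 genes, 0 of 2436 promoters and 0 of 458126 single cytosines. At unadjusted p under 0.05 there were 2573 tiles (3.71%), 235 genes (1.89%), 78 promoters (3.2%) and 17335 cytosines (3.78%). Limma was the only tool run, since the tables hold no counts, and it gave 0 calls for these features under every alternative setting fitted to blood alone or with its saline and 12 h libraries. A p that misses the threshold does not show that the times are alike, so the intervals matter. The 95% interval of the difference had a median half-width of 2.10 points for genes and 6.09 points for tiles. For 9681 genes (77.8%) the whole interval lay within 5 points of 0, and for 47968 tiles (69.2%) within 10 points. Single cytosines were less precise, with a median half-width of 10.1 points.

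The differences themselves were small. The median absolute difference was 0.436 points over genes and 1.86 points over tiles, and 89.3% of tiles differed by less than 5 points. A difference of 20 points or more was seen at 9 tiles and at no gene or promoter. All 3 libraries at 24 h were above all 4 at 6 h at 3.52% of tiles and 1.61% of genes, and below them at 1.44% of tiles and 0.884% of genes. Tiles within 1 kb of a gene start had a median level of 35.2% at 6 h and 34.3% at 24 h, while the median of their differences was 0.148 points. Tiles inside genes had 87.1% and 88.2%, and those outside genes 86.1% and 87.1%.

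Tiles were also grouped by their saline level. The 9090 tiles at 20 to 50% in saline showed the widest gap between saline and LPS: their mean was 36.1% ± 0.211 in saline (SD, n = 4), 55.7% ± 2.52 at LPS 6 h (SD, n = 4) and 56.2% ± 3.11 at LPS 24 h (SD, n = 3). By library these tiles had 57.1%, 52.4%, 58.2% and 55.2% at 6 h and 56.0%, 59.4% and 53.2% at 24 h, so the LPS groups overlapped (difference 0.485 points, exact permutation test, two-sided, p = 0.8, 6 saline levels compared). In the other 5 classes the mean differed by -0.338 to 0.621 points between 24 h and 6 h, with exact permutation p from 0.514 to 0.857, two-sided and unadjusted.

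**Figure D2:**
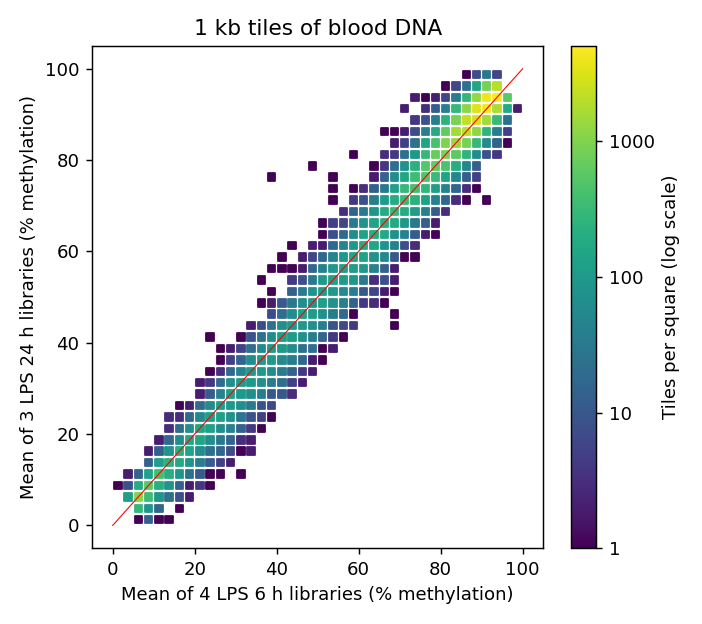
Mean methylation of each 1 kb tile in the 4 LPS 6 h libraries (x axis, %) and the 3 LPS 24 h libraries (y axis, %), with the number of tiles per square on a log colour scale and the line of equality in red. The 69334 tiles lie along the line at every level, and 504 differ by 10 points or more.

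The tiles of lowest p whose groups did not overlap, 10 in each direction, are given as values, since none was called (limma, adjusted p of 1 for the best tile). The lowest p belonged to a tile inside Banp, which encodes a nuclear protein that binds CpG-rich promoters (chr8:121974001-121975000, 6 cytosines). It had 30.6%, 42.8%, 29.1% and 37.4% in the 6 h libraries and 16.7%, 19.9% and 14.6% in the 24 h libraries. Every 24 h value lay below every 6 h value, by -17.9 points in the mean (95% interval -25.3 to -10.5), with saline at 32.2% and LPS 12 h at 30.8%. A tile inside Ints7, a subunit of the Integrator complex that processes small nuclear RNAs (chr1:191592001-191593000, 4 cytosines), had 24.7%, 37.0%, 43.5% and 33.4% at 6 h and 16.9%, 17.3% and 11.9% at 24 h. Here saline was far higher, at 60.4%, and the 12 h mean of 28.6% lay between the 6 h mean of 34.7% and the 24 h mean of 15.4%.

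A tile inside Meis1, a homeobox gene of blood stem and progenitor cells (chr11:19007001-19008000), rested on 10 cytosines, more than the other 19. It had 23.5%, 32.1%, 29.7% and 28.9% at 6 h and 17.7%, 17.9% and 13.9% at 24 h, with saline at 53.7%. The groups did not overlap and differed by -12.1 points (95% interval -17.7 to -6.45). The whole gene, over 140 cytosines, differed by only -1.50 points (95% interval -2.63 to -0.373). Tiles in Samsn1, an adaptor protein of blood cells, in Nek2, a mitotic kinase, in B4galnt4, a glycosyltransferase, and in Dtd1, which removes D-amino acids from tRNA, had differences of -15.7, -15.3, -12.3 and -9.19 points. At these 4 tiles saline was at 54.3%, 64.8%, 63.8% and 61.9%, so that the 24 h libraries lay farther from saline than the 6 h libraries did. With saline above the 6 h values, this follows from picking tiles that were lower at 24 h. A tile in Dmd, the dystrophin gene, ran the other way: saline was at 5.66%, LPS 6 h at 22.2% and LPS 24 h at 10.8%.

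Among the 10 tiles that were higher at 24 h, 8 were near full methylation there, with means of 92.7% to 99.7%. A tile in Stab2, a scavenger receptor of endothelium (chr10:86846001-86847000, 5 cytosines), had 82.8%, 81.3%, 82.4% and 82.9% at 6 h and 94.8%, 91.4% and 91.8% at 24 h. These groups stood apart by 10.3 points (95% interval 5.17 to 15.4), with saline at 81.1%. A tile in Grip1, a scaffold of glutamate receptors (chr10:119666001-119667000, 4 cytosines), showed the widest gap of the 10, 16.6 points, from 63.2%, 72.1%, 72.7% and 66.3% to 82.6%, 86.3% and 86.8%. Its 24 h mean of 85.2% was close to the saline mean of 85.3%. The lowest of the 10 was a tile in Sulf1, a sulfatase of heparan sulfate, at 3.23% and 11.2%.

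**Figure D3:**
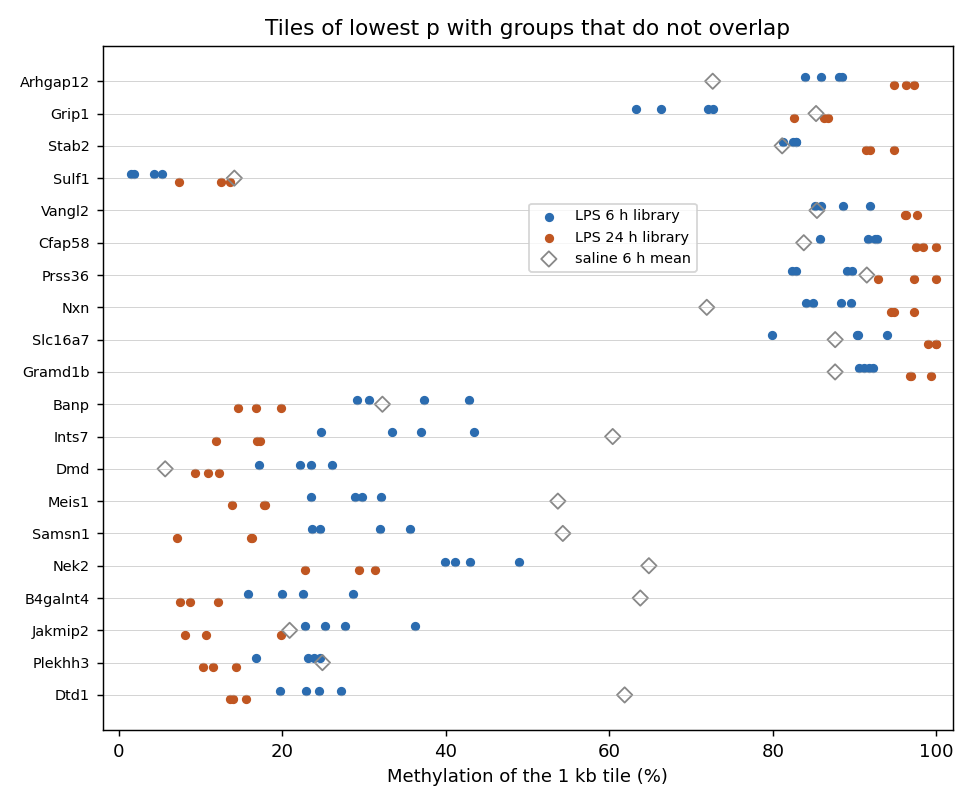
Methylation (%) of the 20 tiles of lowest p with groups that do not overlap, labelled by gene, with the 10 higher at 24 h on top. Dots are single libraries and open diamonds saline means. At Ints7, Meis1, Samsn1, Nek2, B4galnt4 and Dtd1 the 24 h libraries lie farther from saline than the 6 h libraries do. The same is seen at tiles higher at 24 h, such as Arhgap12, Nxn, Cfap58 and Stab2. At Grip1, Sulf1 and Dmd the 24 h libraries lie nearer to saline.

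The largest difference of all tiles fell in Camk2b, which encodes a subunit of a calcium-dependent kinase of neurons (chr11:6006001-6007000, 7 cytosines). Its levels were 23.2%, 78.9%, 31.1% and 25.4% at 6 h and 85.5%, 91.7% and 50.6% at 24 h. These groups overlapped through LPS 6 h replicate 2, and the interval of the 36.3 point difference ran from 9.34 to 63.3. The next tile of the gene had 69.9%, 66.0%, 29.6% and 30.8% at 6 h and 81.5%, 82.1% and 72.9% at 24 h, without overlap. At LPS 12 h the first tile had 50.1% ± 41.1 (SD, n = 3) and the next 56.2% ± 21.7 (SD, n = 3). Saline was at 50.2% and 36.6%. Libraries taken at the same time thus differed widely at this gene.

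Over whole genes, the transcription factor gene Spi1 had 11.4%, 19.7%, 11.7% and 8.87% at 6 h and 5.05%, 16.2% and 8.11% at 24 h. These groups overlapped (difference -3.12 points, 95% interval -10.4 to 4.21), and all 7 values were far from the saline mean of 67.2%. The cytokine gene Tnf had 84.3%, 81.2%, 91.6% and 87.4% at 6 h and 88.5%, 91.5% and 87.6% at 24 h over 5 cytosines. These overlapped too, around means of 86.1% and 89.2%, with saline at 64.9%. Csf3r, the receptor for granulocyte colony-stimulating factor, differed by 0.76 points (95% interval -1.84 to 3.36) and had 43.6% in saline.

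Tight bounds were found at genes with many measured cytosines, some of them at low levels. Irak3 had a mean of 14.6% at 6 h, Fkbp5 7.28%, Ache 7.04% and Nr3c1 5.10%. Levels so low leave little room for a fall, and a whole-gene mean can hide a tile, as at Meis1. Irak3, an inhibitor of Toll-like receptor signalling that is known from endotoxin tolerance, differed by 0.0022 points over 69 cytosines (95% interval -0.823 to 0.828). The glucocorticoid receptor gene Nr3c1 differed by 0.361 points (95% interval -0.363 to 1.08) and Fkbp5, its target and co-chaperone, by 0.368 points (-0.261 to 0.998). Ache, which encodes the enzyme that DFP inhibits, differed by -0.156 points (-0.952 to 0.641). Dnmt3a, a DNA methyltransferase, differed by -0.39 points (-2.06 to 1.28) and Tet2, an enzyme that oxidises methylcytosine, by -0.225 points (-1.79 to 1.34). Nlrp3, the inflammasome sensor, was less tightly bound, at -0.763 points (-6.09 to 4.56).

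Of the 17 gene lists described, none held a called gene. Over all 12450 genes, all 24 h libraries lay above all 6 h libraries at 1.61% and below them at 0.884%. A short list would hold few or none at those shares, so such counts are no result about a list. Of 22 neutrophil markers, 16 were tested, with a median difference of -0.899 points against 0.13 points over all 12450 genes. Without LPS 24 h replicate 3 the median was -0.142 points. Of the 16, 9 were lower and 7 higher at 24 h, and none had groups that did not overlap. Unadjusted p was under 0.05 for 3 of the 16, against 1.89% of all genes. Mmp8, the neutrophil collagenase, had 33.1%, 41.2%, 39.8% and 41.3% at 6 h and 34.0%, 32.6% and 25.1% at 24 h over 4 cytosines. Its 24 h values were mostly the lower ones but overlapped with LPS 6 h replicate 1 (difference -8.24 points, 95% interval -14.4 to -2.05, saline 67.8%). Elane, neutrophil elastase, had 70.9%, 76.2%, 75.1% and 70.1% at 6 h and 64.5%, 70.5% and 62.7% at 24 h. Prtn3, its neighbour and relative, had 6.2%, 11.3%, 10.1% and 6.59% at 6 h and 4.7%, 6.74% and 4.19% at 24 h. In both genes only LPS 24 h replicate 2 reached into the 6 h range, and saline was higher, at 82.0% and 37.2%. The difference at Elane was -7.18 points, and -2.58 points with flanks of 5000 bp. Other granule genes overlapped more widely: Mpo, myeloperoxidase, had 40.4% and 36.5% in the means, and Ctsg, cathepsin G, 38.9% and 37.8%. Among the 7 with higher means at 24 h were Il1r2, a decoy receptor for interleukin-1, at 2.12 points, and the granule genes Camp and Mmp9, at 0.98 and 0.94 points.

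Myeloid transcription factors gave 7 tested genes of 14 with a median difference of 0.304 points. Cebpe, which drives the late steps of granulocyte maturation, had 17.6%, 29.3%, 32.2% and 24.0% at 6 h and 18.0%, 24.9% and 13.6% at 24 h (difference -6.94 points, 95% interval -15.7 to 1.82, saline 61.3%). Monocyte markers gave 8 tested genes of 16 with a median of 1.36 points. Fcgr1, the high-affinity receptor for immunoglobulin G, had 54.9%, 50.7%, 59.1% and 56.2% at 6 h and 59.8%, 56.3% and 62.9% at 24 h (difference 4.45 points, 95% interval -0.721 to 9.62), and stood at 26.5% in saline.

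Of the lymphocyte markers, the medians were -0.131 points over 18 tested T cell markers, 0.322 points over 10 B cell markers and 1.14 points over 2 NK cell markers. None of these 30 tested genes had groups that did not overlap, against 1.61% above and 0.884% below over all genes. Cd3g, a chain of the T cell receptor complex, had 81.4%, 77.2%, 76.6% and 76.9% at 6 h and 81.5%, 83.0% and 79.7% at 24 h. Lat, the linker of T cell receptor signalling, differed by -1.98 points (95% interval -4.38 to 0.413). Cd3d, another chain of that complex, lay under the 5% limit and was not tested. Over 4 cytosines it had 6.28%, 6.52%, 1.47% and 2.27% at 6 h and 0% in each of the 3 libraries at 24 h. Its groups thus did not overlap near the floor, where LPS 12 h also had a mean of 0%. Saline was at 48.1% ± 17.1 (SD, n = 4). Cd79b, a chain of the B cell receptor, lay under the 5% limit over the 7 libraries as well, with 5.01% at 6 h, 4.63% at 24 h and 29.0% in saline.

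Of erythroid and platelet markers, 7 of 18 were tested (median 0.134 points). Blood progenitor markers gave 7 of 9 (-0.179 points) and endothelial markers 10 of 10 (0.136 points). No tested gene of these lists had groups that did not overlap, against 1.61% above and 0.884% below over all genes. Pf4, a chemokine of platelet granules, had 3.44%, 6.09%, 6.99% and 7.73% at 6 h and 3.48%, 6.59% and 2.44% at 24 h. All 7 values overlapped in a narrow band, far from 61.2% in saline. Nfe2, a transcription factor of platelet formation, had 37.8% at 6 h, 39.3% at 12 h and 40.0% at 24 h, against 15.9% in saline.

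In the pathways of the endotoxin response, signalling through Toll-like receptors and NF-kB had 18 of 24 genes tested, with a median of 0.0514 points. Ly96, the co-receptor that holds LPS on TLR4, was the 1 gene of these whose groups did not overlap, with 5.67%, 6.57%, 5.76% and 6.12% at 6 h and 6.6%, 6.74% and 7.77% at 24 h. That difference was 1.01 points (95% interval 0.097 to 1.92), at a saline level of 6.01%, and 0.102 points with flanks of 5000 bp. Lbp, the LPS-binding protein of serum, had 79.4% and 83.4%. Negative regulators of the response gave 8 tested genes of 16 with a median of 0.211 points. The members of lowest p, Inpp5d and Nfkbiz, differed by -1.48 points (95% interval -4.10 to 1.15) and 1.12 points (-1.29 to 3.53). Tnfaip3, the ubiquitin-editing inhibitor of NF-kB, differed by 0.028 points (95% interval -1.02 to 1.08).

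Cytokines and chemokines gave 9 tested genes of 22 with a median of -0.784 points. The neighbouring chemokine genes Ccl3 and Ccl4 shared the same 5 cytosines, which had 31.7%, 32.3%, 39.1% and 41.7% at 6 h, 35.9%, 36.2% and 28.8% at 24 h and a mean of 74.4% in saline. Their LPS groups overlapped (difference -2.56 points, 95% interval -9.28 to 4.17). Interferon response genes gave 11 tested of 20 with a median of 0.422 points. Irf9, the DNA-binding subunit of the interferon-stimulated complex ISGF3, had 22.3%, 21.1%, 21.0% and 21.7% at 6 h and 18.4%, 20.5% and 18.2% at 24 h over 13 cytosines. It was the 1 gene of the list with groups that did not overlap (difference -2.48 points, 95% interval -3.99 to -0.979, with an unadjusted limma p of 0.00534), and saline was at 30.4%. The difference was -0.201 points when the 1 kb flanks were left out. It was -0.856 points in a joint fit with saline and LPS 12 h, over the cytosines also measured at 12 h. Gbp3, an interferon-induced GTPase, had 33.2%, 39.1%, 40.0% and 28.2% at 6 h and 28.4%, 29.4% and 22.8% at 24 h over 3 cytosines, with an overlap at LPS 6 h replicate 4.

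Glucocorticoid response genes (10 tested of 14, median 0.192 points), clock genes (15 of 20, 0.114 points) and the DNA methylation machinery (14 of 16, 0.245 points) were tested as well. The interval lay within 5 points of 0 for 9, 15 and 13 of their genes, against 77.8% of all 12450 genes. The times of day of collection are not given in the labels. Cry2, a repressor of the clock, had 8.49% at 6 h and 9.41% at 24 h, against 2.50% in saline, a difference of 0.917 points, or 4.22 points without the 1 kb flanks. Per3, another clock repressor, had 38.0% and 38.8%. Dnmt3l, a cofactor of the de novo methyltransferases, had 85.4%, 85.9%, 86.5% and 85.8% at 6 h and 88.6%, 89.6% and 86.8% at 24 h without overlap (difference 2.37 points, 95% interval -0.511 to 5.25, saline 66.3%).

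Of the 191 genes tested among the list members and the genes always given, 17 lay at least 20 points from saline at 6 h. Ccl3 and Ccl4, which share the same 5 cytosines, are both counted. The share of all genes at that distance was not worked out, so the count is no result about the lists. The median distance of the 17 from saline was 28.9 points at 6 h and 34.7 points at 24 h. The median absolute difference between 24 h and 6 h was 3.09 points and the largest 8.24 points. For 0 of the 17 did the 95% interval of the 24 h against 6 h difference reach back to the saline mean. These genes were picked by their distance at 6 h, so the values are a description.

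**Figure D4:**
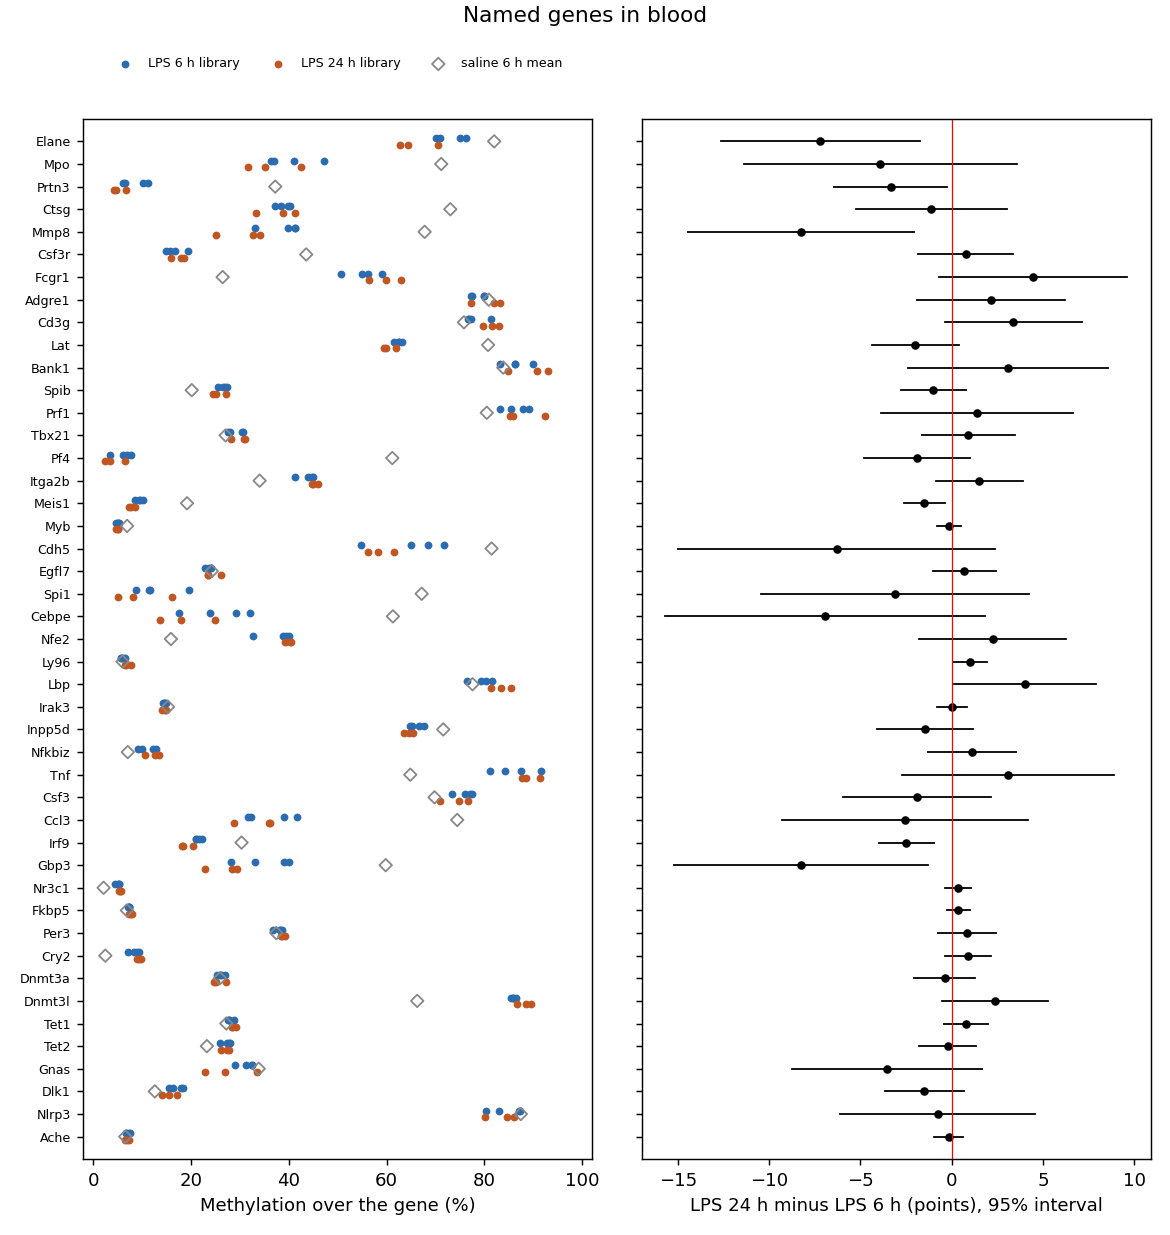
Left, methylation (%) of named genes in each LPS library (dots) with the saline mean (open diamonds); right, the LPS 24 h minus LPS 6 h difference in points with its 95% interval. No gene was called; the intervals of Irak3, Nr3c1, Fkbp5 and Ache lie within 1.1 points of 0, and Spi1, Pf4 and Cebpe have LPS libraries far from saline at both times.

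Imprinted genes, of which 1 parental allele is methylated, carry levels that are held steady in most tissues and were therefore looked at library by library. All 25 listed were tested, with a median difference of -2.09 points between 24 h and 6 h, 21 lower and 4 higher. None had groups that did not overlap, against 1.61% above and 0.884% below over all genes. Without LPS 24 h replicate 3 the median difference was 0.578 points, with the high replicate 2 still in the group. The median level of the 25 genes was 43.8%, 41.0%, 44.6% and 41.5% at 6 h, and 38.5%, 47.3% and 32.2% at 24 h. LPS 24 h replicates 2 and 3 stood at opposite ends, with the 6 h libraries between them. LPS 24 h replicate 1 also lay below every 6 h library. Replicate 3 was the lowest of the 7 libraries at 16 of the 25 genes, against 27.3% of all genes. Replicate 2 was the highest at 12 of the 25, against 46.0% of all genes, so its rank there was that seen over all genes.

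The spread at single imprinted genes was wide. H19, a maternally expressed noncoding RNA, had 45.0%, 55.9%, 61.0% and 46.5% at 6 h and 45.1%, 65.5% and 38.2% at 24 h, with saline at 53.2% ± 1.87 (SD, n = 4). Kcnq1ot1, the noncoding RNA that silences a cluster of neighbours, had 32.2%, 31.7%, 41.9% and 31.7% at 6 h and 28.4%, 42.8% and 23.1% at 24 h. Gnas, which encodes a stimulatory G protein subunit and was covered by 308 cytosines, had 31.3%, 32.6%, 32.4% and 29.0% at 6 h and 27.0%, 33.5% and 23.0% at 24 h. In all 3 genes the lowest and the highest library were both 24 h libraries. Over the 21 imprinted genes with mean levels of 20 to 80%, the median SD was 2.27 points in saline, 2.61 points at LPS 6 h and 6.39 points at LPS 24 h. Over the 3206 genes of that level with 20 to 80 cytosines it was 0.783, 1.14 and 1.19 points. The differences in spread were not tested, and the comparison was made after the values were seen. Some members share cytosines, as Igf2r with Airn, Peg10 with Sgce and Peg3 with Usp29.

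CpGs read on both strands allow a check inside each library, because the strands are read from different molecules. At 150 such CpGs of imprinted genes with levels of 20 to 80%, the plus strand had means of 40.7%, 40.3%, 44.5% and 37.9% at 6 h and 36.6%, 48.8% and 31.4% at 24 h. On the minus strand they were 45.3%, 39.6%, 46.1% and 40.0% at 6 h and 37.9%, 47.2% and 29.9% at 24 h. LPS 24 h replicate 3 was the lowest and LPS 24 h replicate 2 the highest library on both strands. Over all 16918 CpGs of that kind in the genome, LPS 24 h replicate 3 had 50.2% on the plus strand, inside the range of the other libraries, 47.8% to 58.1%.

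**Figure D5:**
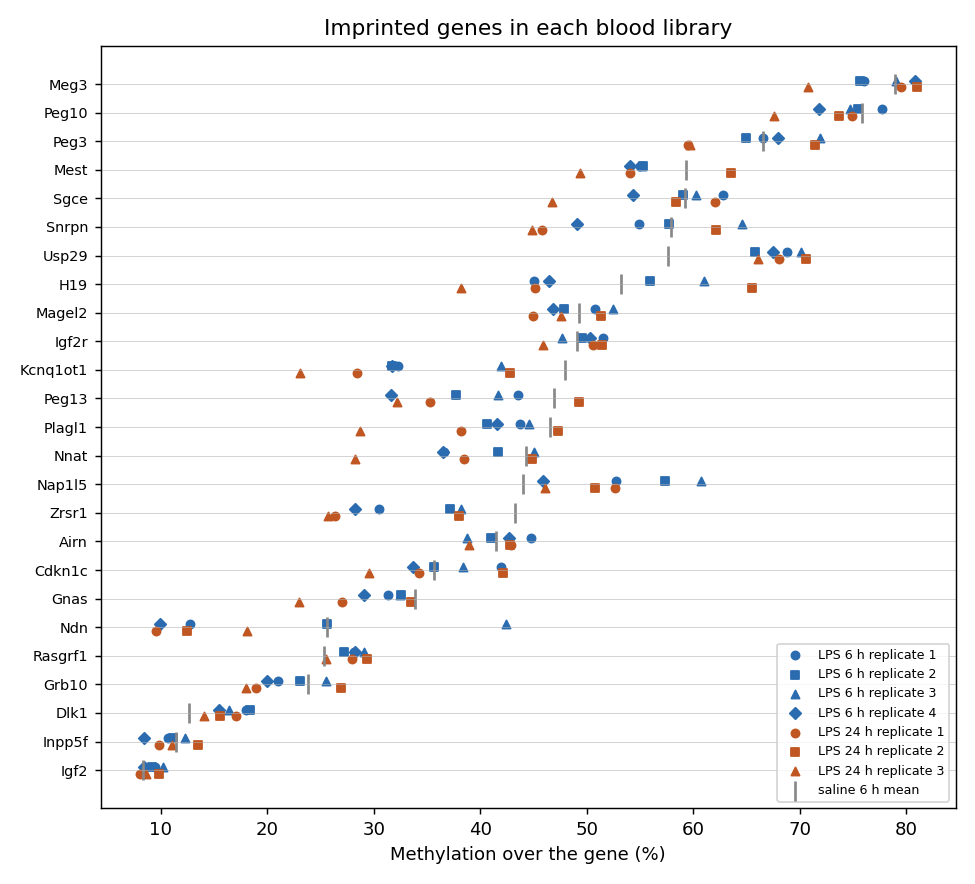
Methylation (%) of 25 imprinted genes in each LPS library, ordered by their saline mean (grey ticks), with marker shapes for the replicates. LPS 24 h replicate 3 (orange triangles) is the lowest library at 16 of the 25 genes and LPS 24 h replicate 2 (orange squares) the highest at 12.

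Promoters, taken as 1 kb to either side of a gene start, gave 2436 testable windows of 2161 genes. All 24 h libraries were above all 6 h libraries at 1.97% of them and below at 1.68%. Of 45 promoters of list members, 0 were above and 2 below, at Irf9 and at 1 start of Sgk1, a kinase induced by glucocorticoids. The Irf9 promoter had 9.0%, 7.96%, 8.22% and 8.5% at 6 h and 4.84%, 7.11% and 4.68% at 24 h over 11 cytosines, with saline at 19.2%. These cytosines are among the 13 of the whole gene with its flanks, so this is not a separate observation. The lowest p of all promoters was at Myadm, a membrane protein of myeloid cells, with 9.67%, 8.19%, 9.27% and 8.52% at 6 h and 12.7%, 14.2% and 12.1% at 24 h. These groups did not overlap (difference 4.10 points, 95% interval 2.2 to 6.0; limma adjusted p of 0.999 for the best promoter).

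Promoter sequences are shown for 4 genes, chosen after the values were seen. Spag8, a sperm-associated gene, is shown because it was among the 12 promoters of lowest p and all 10 of its cytosines fall into the printed window. Snrpn, Plagl1 and Zrsr1 are imprinted genes whose promoters show the spread between the 24 h libraries. The sequences come from RefSeq (GRCm38.p6), run 5′ to 3′ from 250 bases before to 50 bases after the gene start, and carry in capitals the C of each CpG measured on the printed strand and the G opposite each cytosine measured on the other strand. Spag8 lies at chr4:43653545-43653844 on the minus strand, Snrpn at chr7:60005150-60005449 on the minus strand, Plagl1 at chr10:13090582-13090881 and Zrsr1 at chr11:22971755-22972054, both on the plus strand.
Spag8: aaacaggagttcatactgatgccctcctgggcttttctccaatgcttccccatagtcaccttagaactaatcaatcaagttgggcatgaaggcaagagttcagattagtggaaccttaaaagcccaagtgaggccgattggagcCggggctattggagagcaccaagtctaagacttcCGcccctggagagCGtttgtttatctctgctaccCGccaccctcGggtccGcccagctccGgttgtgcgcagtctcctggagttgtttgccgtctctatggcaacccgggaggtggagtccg
Snrpn: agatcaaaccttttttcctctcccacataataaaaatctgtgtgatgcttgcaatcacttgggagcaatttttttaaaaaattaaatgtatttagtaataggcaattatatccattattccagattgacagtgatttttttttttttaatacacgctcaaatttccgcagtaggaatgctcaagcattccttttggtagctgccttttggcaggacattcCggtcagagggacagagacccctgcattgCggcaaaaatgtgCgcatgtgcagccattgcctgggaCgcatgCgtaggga
Plagl1: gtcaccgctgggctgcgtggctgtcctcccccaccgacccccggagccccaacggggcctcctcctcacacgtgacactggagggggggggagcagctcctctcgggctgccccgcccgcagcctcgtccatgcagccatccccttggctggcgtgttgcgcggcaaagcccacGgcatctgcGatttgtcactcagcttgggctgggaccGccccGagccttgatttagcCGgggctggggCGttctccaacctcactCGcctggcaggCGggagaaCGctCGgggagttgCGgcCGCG
Zrsr1: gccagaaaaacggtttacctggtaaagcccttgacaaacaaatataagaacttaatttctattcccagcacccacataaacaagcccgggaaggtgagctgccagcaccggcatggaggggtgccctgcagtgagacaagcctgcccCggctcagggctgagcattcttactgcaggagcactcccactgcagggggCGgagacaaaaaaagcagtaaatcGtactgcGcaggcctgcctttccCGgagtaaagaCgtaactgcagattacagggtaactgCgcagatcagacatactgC

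The motif CCGG, the cut site of the enzyme MspI that RRBS commonly uses, reads the same on both strands. It occurs 3 times in the Spag8 window, once in that of Snrpn, 2 times in that of Plagl1 and 4 times in that of Zrsr1, and 52.8% of the 32851 RefSeq promoter windows hold it. In the Spag8 window the 10 cytosines averaged 34.3%, 28.6%, 34.7% and 30.2% at 6 h and 21.5%, 27.5% and 20.2% at 24 h, with saline at 28.5%. Every 24 h library was below every 6 h library, and the mean was lower at 24 h at each of the 10 cytosines, most at 22 bases before the start, with 45.7% ± 4.78 (SD, n = 4) and 29.8% ± 8.05 (SD, n = 3). This promoter was picked for its low p. Its cytosines lie close together, some on both strands of the same CpG, so their agreement is no separate support. In the Snrpn window the 5 cytosines averaged 34.5%, 36.5%, 44.1% and 31.0% at 6 h and 23.7%, 47.9% and 19.3% at 24 h. In the Zrsr1 window the 10 cytosines averaged 41.5%, 50.1%, 44.2% and 38.5% at 6 h and 42.0%, 46.3% and 26.6% at 24 h. LPS 24 h replicate 3 was the lowest library in both windows. In the Plagl1 window the strands disagreed within libraries: over 9 CpGs read on both, LPS 6 h replicate 3 had 32.0% on the plus strand and 54.9% on the minus strand, and LPS 24 h replicate 3 had 38.3% and 23.8%.

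The same 24 h against 6 h contrast was made in the brain of the same model, and the difference between tissues was tested tile by tile with limma. Against hippocampus 0 of 54000 tiles (0%) were called and 2344 had an unadjusted p under 0.05, and against cortex 0 of 65415 (0%) with 2093. The median absolute 24 h against 6 h difference of these tiles was 1.72 points in blood and 1.67 points in hippocampus, and 1.76 points in blood and 1.48 points in cortex. Leaving out LPS 6 h replicate 1 of blood gave 1 called tile against hippocampus (limma, adjusted p = 0.0441).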

How the data were processed

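Whole blood DNA was profiled by RRBS in 14 libraries of blood, of which the 4 LPS 6 h and 3 LPS 24 h libraries were compared. The authors deposited percent methylation (0 to 100) for single cytosines, per the labels, without read counts, so the depth of each library and the precision it gives are unknown. Trim Galore, Bismark, Bowtie2, SAMtools and methylKit with GRCm38/mm10 are named, per the submitters' processing notes. Settings and coverage minimum: not given in the sources used here. Cytosines in both tables were joined by chromosome, position and strand. At all 169225 measured positions in RefSeq promoter windows (GRCm38.p6) the reference letter matched.

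Percentages were averaged over 1 kb tiles, genes with 1 kb flanks and promoters with at least 3 cytosines and a mean of 5 to 95% over the 7 libraries. They were tested with moderated linear models (limma 3.58.1, R 4.3.3, trended eBayes, two-sided, Benjamini-Hochberg adjustment). The fit was checked on simulated tiles with planted differences far larger than the median size of 1.86 points seen here. That check does not show how often differences of the size seen here would be found. Tiles needed a difference of at least 5 points and single cytosines 10 points. Library values were compared by exact permutation with scipy. The named tiles are those of lowest p, up to 10 in each direction, with groups that do not overlap, 1 per named protein-coding gene. Of each list the 2 genes of lowest p were named, with 10 genes always given. Others, such as Prtn3, Mpo, Ctsg, Pf4, Ccl3, Cd3d, Cd79b, Tnfaip3, H19 and Kcnq1ot1, and the tiles of largest difference were chosen after their values were seen. The members and lists were chosen with earlier results of these data known. Of the per-sample columns, 0 were left unused.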

Additional observations from a re-analysis of the deposited data

Results flagged for a closer look

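In the LPS 6 h group of 4 libraries, 80 sets of values were screened for 1 library far from the other 3, and 3 were found; chance alone marks about 1 in 20. The 24 h group, with 3 libraries, was not screened. At the T cell gene Cd3g, LPS 6 h replicate 1 had 81.4%, while the other 3 lay at 76.6% to 77.2%. At the tile inside Cfap58, a gene of cilia and flagella, LPS 6 h replicate 2 had 85.7%, below the 91.6% to 92.7% of the others. At the Camk2b tile of largest difference, LPS 6 h replicate 2 had 78.9%, against 23.2% to 31.1% in the others.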

How the results depend on the processing

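No tile, gene, promoter or cytosine was called under any of the 19, 16, 12 and 15 alternatives run for them (M scale, centring, robust fit, joint fit, level and cytosine limits, other tile sizes, flanks and minimum differences, replicate block, each library left out). The promoter alternatives and the list medians without 1 library were added after seeing the data. The lowest adjusted p among these was 0.141, for promoters. The labels do not say whether equal replicate numbers pair the libraries. Correlations of deviations were 0.0159, 0.0505 and -0.0732 for equal numbers and -0.0638 to 0.144 for unequal numbers, which does not settle it. The replicate block, without the unpaired 6 h library, gave 0 tiles, 0 genes, 0 promoters and 0 cytosines. The difference in mean methylation changed sign with the median over cytosines, to -0.443 points, and ranged from -0.421 to 0.617 points when 1 library was left out. It was negative without LPS 6 h replicate 2 or without LPS 24 h replicate 2. The share at 20 to 80% ranged from -1.95 to -0.229 points and was -2.07 points for 10 to 90%. The contrast with hippocampus ranged from 0 to 1 tiles when a blood library was left out. In these joint fits with brain, the blood contrast itself gave 0 tiles with all libraries, 1 when libraries were centred beside hippocampus, and up to 3 with 1 library left out (without LPS 24 h replicate 2, beside cortex). List medians changed sign without LPS 6 h replicate 2 or without LPS 24 h replicate 3 in 10 of 17 lists, and the median of all genes went from 0.13 to -0.115 points without LPS 6 h replicate 2. Of named genes and tiles, 9 gene values and 1 tile value moved by more than the SD between replicates, among them Irf9, at -0.201 points without its flanks. The cause was not tested. Read depth is unknown, so its part in the precision could not be measured.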

Other observations

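The strands of a CpG gave a measure of error that needs no read count. In each of the 7 libraries, the 16918 CpGs at 20 to 80% methylation that were read on both strands had a median absolute difference between strands of 6.48 to 9.82 points. The 24 h minus 6 h difference of group means at these CpGs had a median size of 4.47 points on the plus strand and 4.48 points on the minus strand. Across the CpGs, the difference on 1 strand and that on the other had a Pearson correlation of 0.148. CpGs share libraries and neighbouring CpGs share reads, so this is a description.

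LPS 6 h and LPS 24 h libraries varied more among themselves than saline libraries. The SD of mean methylation was 0.181 points in saline (n = 4), 0.805 points at LPS 6 h (n = 4) and 1.06 points at LPS 24 h (n = 3). The SD of the share at 20 to 80% was 0.26, 1.54 and 1.76 points. Over the cytosines also measured at 12 h, the LPS 12 h libraries had an SD of 0.711 points in the mean, against 0.199 in saline. Their SD of the share was 0.392 points, nearer to saline at 0.271 than to 6 h at 1.43 and 24 h at 1.64. The difference in spread was not tested.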
